A study of Mus musculus with 76 samples.

Results

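Hearts of SCID mice that received control cells after partial nephrectomy were compared with hearts of SCID mice that had partial nephrectomy and no cells. The comparison holds 10 of the 76 samples of the series, 5 of 5 in each group, and was taken from the columns of the raw count table labelled for these groups. It sets the transplant of control cells against the surgery alone. The edgeR test called none of 15091 genes at an adjusted p under 0.05. The values below therefore describe levels in each sample, and differences that did not pass the test are given as such.

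Both groups were male Fox Chase SCID mice, strain CB17/Icr-Prkdcscid/IcrlcoCrl, 12 weeks old. The group without cells (PNx) had partial nephrectomy only, and the other group (control cells) had the same surgery and a transplant that the labels call control cells. The labels name neither the type or origin of these cells nor their number, their site or the time between transplant and sampling. All animals of the study carry the Prkdc scid allele, a defect in the DNA-dependent protein kinase that leaves the mouse without working T and B lymphocytes, while its macrophages and neutrophils remain. The 3 other heart groups, which share the fit and are quoted for reference, were sham surgery (Sham) and partial nephrectomy with NaKtide cells or scrambled cells (n = 5 each). Nothing in the labels ties the samples of a group to separate animals, so a p-value here speaks to sample spread alone, which may be technical.

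Loss of kidney mass brings on uremic cardiomyopathy, in which the heart enlarges, stores extracellular matrix and relaxes poorly. Strained cardiomyocytes switch on the natriuretic peptide genes Nppa and Nppb, and fibroblasts deposit collagen and periostin. The Na/K-ATPase exchanges sodium for potassium across the cell membrane and also signals through the kinase Src, which is the pathway named in the title of the study. In a SCID mouse, myeloid cells carry the cellular part of inflammation: neutrophils store the calcium-binding proteins S100a8 and S100a9, which together form calprotectin, and macrophages secrete lysozyme, complement C1q and chemokines.

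The samples held cardiac RNA. Myh6, the fast myosin heavy chain, measured 9851 to 18185 CPM (counts scaled to the library total after TMM adjustment), and Tnnt2, cardiac troponin T, 3765 to 5183 CPM. Lymphocyte genes were close to absent: Ms4a1 had no count in any of the 10 samples, and Cd8a had 3 counts in all of them together. Total counts ran from 7586579 to 12387691 with control cells and from 5495996 to 11355218 in PNx. The means differed by less than an exact permutation test over samples could separate (two-sided p = 0.151, 252 arrangements, smallest possible p 0.00794). Counts from the mitochondrial genome took 16.2% ± 2.48 (SD, n = 5) of the total with control cells and 15.2% ± 4.02 (n = 5) in PNx (exact permutation p = 0.627).

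Some samples stood apart from their groups. PNx 1 had the lowest median correlation with the other 9 samples (0.916 across genes, against 0.948 to 0.973) and a mitochondrial share of 8.72%. Its neutrophil, macrophage and matrix transcripts were far above those of the other PNx samples, and PNx 2 shared the neutrophil part. Atrial transcripts were high in control cells 1 and PNx 5, where the atrial light chain Myl7 measured 1228 and 1050 CPM, against 0.558 to 173 CPM in the other 8 samples. PNx 4 held liver transcripts (1304 CPM summed over 8 genes, against 4.02 to 132 CPM in the other 9 samples). Where leaving out PNx 1, or PNx 1 and PNx 2, moved a named value by much, the value without them is given.

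Calprotectin and the acute-phase proteins had the largest log2 fold changes among the named genes, with the high levels in PNx 1 and PNx 2. S100a8 (ENSMUSG00000056054, GRCm38 chromosome 3, 90668978 to 90670035) and S100a9 (ENSMUSG00000056071, chromosome 3, 90692632 to 90695721) are neighbouring genes. The sequences before their start sites are shown because these genes had the lowest DESeq2 adjusted p of the comparison. They are from RefSeq on GRCm38.p6, 5′ to 3′ on the strand of each gene, and stop at the first base that GENCODE M21 places in the gene. The stretch of S100a8 is chr3:90668821-90668977 on the plus strand, and that of S100a9 is chr3:90695722-90695971 on the minus strand. Capitals mark matches to TTNNGNAA on either strand, the core that C/EBP transcription factors are known to bind.
S100a8: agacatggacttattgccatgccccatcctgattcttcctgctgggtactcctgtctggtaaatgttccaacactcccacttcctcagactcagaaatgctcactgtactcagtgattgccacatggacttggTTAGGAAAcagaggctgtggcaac
S100a9: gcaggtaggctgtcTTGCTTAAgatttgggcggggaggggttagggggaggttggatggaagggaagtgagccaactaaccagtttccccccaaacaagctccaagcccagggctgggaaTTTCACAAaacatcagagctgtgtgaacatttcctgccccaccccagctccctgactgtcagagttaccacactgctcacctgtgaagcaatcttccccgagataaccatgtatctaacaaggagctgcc
S100a8 had 1 match and S100a9 had 2, and the matches did not overlap. Such a match occurs in 27.1% of the 32851 RefSeq promoters over a window of 157 bases and in 36.8% over 250 bases, so it is a description of the sequence and not a site.

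S100a8 measured 284 CPM in PNx 1, 153 CPM in PNx 2, and 3.51, 1.29 and 0.785 CPM in PNx 3, 4 and 5. With control cells it measured 0.744, 0.404, 0.827, 0.351 and 0.399 CPM, which rests on 3 to 10 counts per sample. PNx 1 to 4 thus lay above every sample with control cells, and PNx 5 lay within their range. On the log2 scale the difference was −7.26 (SE 1.82), with an edgeR adjusted p = 0.584. S100a9 had the same order of levels at the top. It measured 687, 347, 9.67, 1.77 and 1.35 CPM in PNx 1 to 5 and 2.05, 0.673, 2.23, 1.40 and 1.75 CPM with control cells (log2 difference −6.96 with SE 1.74, edgeR adjusted p = 0.584). Lcn2 (ENSMUSG00000026822, chromosome 2, 32384633 to 32388252), lipocalin 2, a protein of neutrophil granules that binds bacterial siderophores, measured 627, 128, 3.85, 1.77 and 1.68 CPM in PNx. Its levels with control cells were 3.07, 1.21, 1.65, 1.52 and 2.39 CPM (−6.24, SE 1.72, edgeR adjusted p = 0.584).

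DESeq2 called these 3 genes and no other, all lower with control cells, 0.02% of the 15033 genes to which it gave an adjusted p. Its adjusted p was 0.000612 for S100a8 and S100a9 and 0.0111 for Lcn2, while edgeR called 0.0% and limma voom with quality weights also called 0 genes. Without PNx 1 the edgeR log2 fold changes were −6.05 for S100a8, −5.69 for S100a9 and −4.0 for Lcn2. Without PNx 1 and PNx 2 they were −1.77, −1.42 and −0.32. DESeq2 called 0 genes without PNx 1 and 0 without both, and gave the 3 genes no adjusted p in either fit. Ly6g, a surface marker of mouse neutrophils, had 78 counts in PNx 1, 13 in PNx 2 and 1 in PNx 3, and none in the other 7 samples. Only 4 of the 11 neutrophil markers on the list passed the expression filter, all 4 of them high in PNx 1 and PNx 2, so their count says nothing further. In bulk RNA, fewer cells of a type and less RNA per cell cannot be told apart.

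The same pair of samples led the acute-phase and granulocyte genes. Haptoglobin (Hp), which binds free haemoglobin, measured 514, 67.6, 1.37, 38.7 and 1.91 CPM in PNx 1 to 5. With control cells Hp measured 6.42, 0.808, 0.662, 0.584 and 3.67 CPM (log2 difference −5.63 with SE 1.62, edgeR adjusted p = 0.584). Serpina3n, a secreted protease inhibitor of the acute phase, measured 859, 159, 9.5, 18.6 and 10.4 CPM in PNx and 29.6, 6.46, 8.10, 7.95 and 4.31 CPM with control cells (−4.22, SE 1.26, edgeR adjusted p = 0.584). The groups overlapped for both genes. Mmp9, the gelatinase of neutrophil granules, had a log2 fold change of −3.80 (SE 1.19), and Csf3r, the receptor for the granulocyte growth factor G-CSF, one of −2.89 (SE 0.941). Neither passed the edgeR test. Without PNx 1 the values were −3.37 for Hp, −2.08 for Serpina3n, −2.14 for Mmp9 and −1.71 for Csf3r. Without PNx 1 and PNx 2 they were −2.37, −0.15, 0.55 and −0.35. For Hp the PNx samples left in that fit measured 1.37, 38.7 and 1.91 CPM. The 38.7 CPM is that of PNx 4, which held the liver transcripts, and their part in Hp was not tested.

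**Figure D1:**
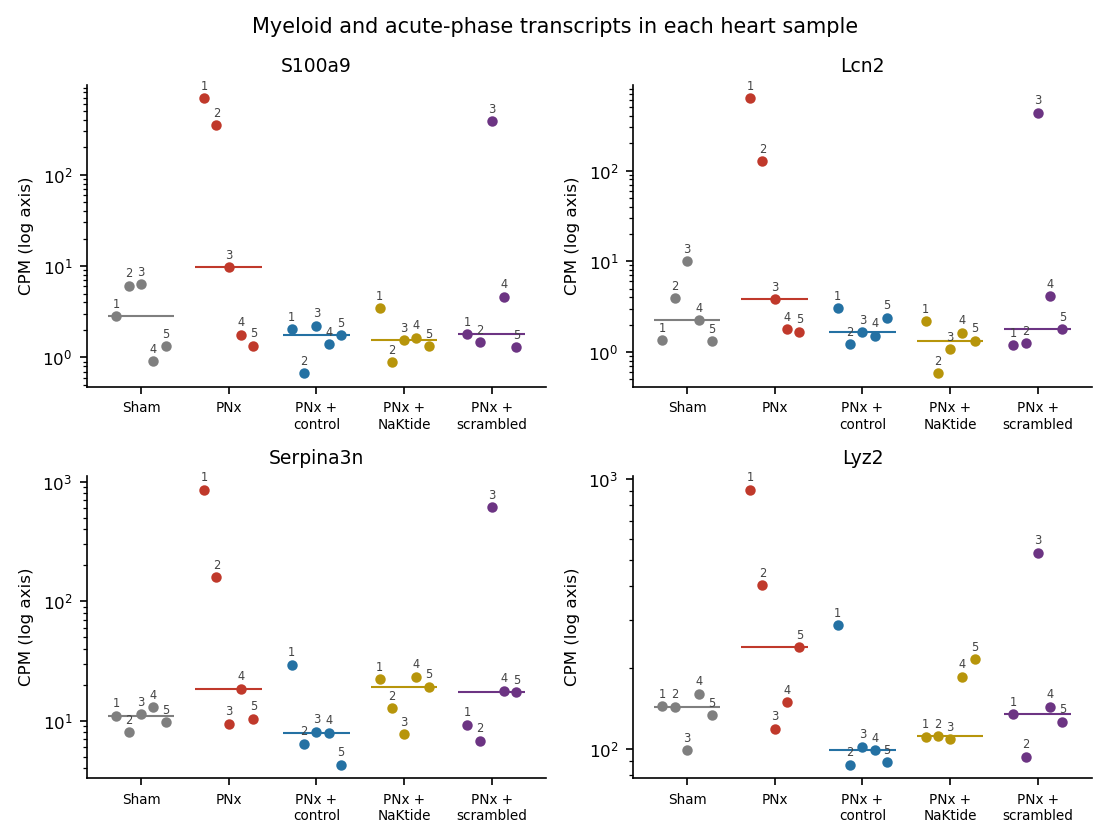
Levels of S100a9, Lcn2, Serpina3n and Lyz2 in the 25 heart samples, as CPM on a log axis; points are samples with their replicate number, and lines are group medians. PNx 1 and PNx 2, and scrambled cells 3 among the groups outside the comparison, sit above all other samples for each gene.

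High levels of these genes were not limited to PNx. The sample scrambled cells 3, outside the comparison, had 384 CPM of S100a9, 436 CPM of Lcn2 and 494 CPM of Hp, while the median of its group was 1.79, 1.80 and 2.27 CPM. Liver transcripts in scrambled cells 3 summed to 1172 CPM over 8 genes, and their part in its Hp level was not tested. The highest Sham sample had 6.36 CPM of S100a9, and the highest NaKtide sample 3.47 CPM of S100a9 and 2.19 CPM of Lcn2. The fold changes above contrast control cells with PNx only, and scrambled cells 3 does not enter them.

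Chemokines followed the same samples with smaller differences. Ccl9, which attracts myeloid cells, measured 51.3, 20.1, 4.45, 6.78 and 6.51 CPM in PNx and 6.79, 2.15, 2.81, 2.45 and 2.63 CPM with control cells. Its log2 fold change was −2.39 (SE 0.707, edgeR adjusted p = 0.584), and −1.42 without PNx 1. Control cells 1 was the only sample of its group to reach the PNx range. Ccl6 (−1.93, SE 0.678), the monocyte attractant Ccl7 (−1.44, SE 0.466) and the cytokine Il1b (−2.59, SE 0.971) also had lower means with control cells. Without PNx 1 they had −1.06, −0.82 and −1.66. Of the 17 cytokine and chemokine genes on the list, 13 were tested, and 7 of them had a lower level at an unadjusted p under 0.05, where 5.22% of all tested genes did. Without PNx 1 that number was 1, and the median log2 fold change of the 13 moved from −1.21 to −0.05. None passed the adjusted test, and 4 members were too low to test.

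Macrophage genes had lower means with control cells in all 13 of the 13 members listed and tested, with a median log2 fold change of −0.74. Over all tested genes 50.4% were lower, 49.6% were higher and the median was −0.003. Lyz2, lysozyme, measured 287, 87.5, 102, 99.1 and 89.6 CPM with control cells and 910, 404, 119, 149 and 239 CPM in PNx (−1.45, SE 0.504, edgeR adjusted p = 0.584; −0.75 without PNx 1). Control cells 1 lay above PNx 3, 4 and 5, and the other 4 samples with control cells lay below every PNx sample. C1qa, a chain of complement C1q made by resident macrophages, measured 68.9, 23.7, 21.8, 27.9 and 17.3 CPM against 199, 62.7, 27.3, 39.5 and 44.5 CPM (−1.23, SE 0.523). Ccr2, the receptor of monocytes recruited from blood, had a log2 fold change of −2.07 (SE 0.673), and Cd14, the lipopolysaccharide co-receptor, one of −1.76 (SE 0.660). C1qa had −0.42, Ccr2 −1.02 and Cd14 −0.62 without PNx 1. These 4 genes were among 5 members with a lower level at an unadjusted p under 0.05, where 5.22% of all tested genes had one.

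Without PNx 1 no macrophage gene had an unadjusted p under 0.05, 10 of the 13 were still lower, and the median was −0.26. Without PNx 1 and PNx 2 it was −0.07. Summed over the 13 genes, macrophage transcripts ran from 175 to 614 CPM with control cells and from 246 to 1704 CPM in PNx, with the highest values in control cells 1 and PNx 1.

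Matrix genes were high in PNx 1, at 5717 summed CPM against 799 to 2431 CPM in the other 9 samples. Of the 17 extracellular matrix genes, all tested, 16 had lower means with control cells, 5 of them at an unadjusted p under 0.05. Over all tested genes 50.4% were lower, and 5.22% were lower at that p. The median log2 fold change of the 17 was −0.60. Without PNx 1 the count of lower members was 6, none at an unadjusted p under 0.05, and the median was 0.20. Postn, periostin, which activated fibroblasts secrete, measured 77.5, 25.5, 31.1, 29.0 and 12.0 CPM with control cells and 408, 66.9, 18.7, 41.3 and 22.9 CPM in PNx. The log2 fold change was −1.67 (SE 0.742, edgeR adjusted p = 0.584), −0.06 without PNx 1 and 0.37 without PNx 1 and PNx 2. The other 4 PNx samples lay within the range of the control cell samples.

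Lox, the enzyme that cross-links collagen, measured 37.9, 7.71, 1.71, 2.1 and 1.01 CPM in PNx and 2.70, 0.673, 1.49, 0.701 and 0.319 CPM with control cells (−3.07, SE 1.01, edgeR adjusted p = 0.584; −1.29 without PNx 1). Timp1, an inhibitor of matrix proteases, measured 109 CPM in PNx 1 and 1.63 to 8.78 CPM in the other PNx samples, against 0.808 to 6.89 CPM with control cells (−3.45, SE 1.19; −0.73 without PNx 1). Fbn1, the fibrillin of elastic microfibrils, had a log2 fold change of −1.0 (SE 0.439), and −0.23 without PNx 1. The main fibrillar collagens did not pass at an unadjusted p under 0.05. Col1a1 measured 104 ± 80.7 CPM with control cells and 156 ± 178 CPM in PNx (mean ± SD, n = 5 and 5; −0.59, SE 0.555). Its log2 fold change was 0.45 without PNx 1. Col3a1 had −1.04 (SE 0.617), and 0.19 without PNx 1.

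The TGF-beta list was mixed: of 14 tested genes 8 had higher and 6 lower means, with a median of 0.03, and 0.11 without PNx 1. The 2 members with a lower level at an unadjusted p under 0.05, where 5.22% of all tested genes had one, were Ltbp2 and Ccn2. Ltbp2, a latent TGF-beta binding protein, measured 88.9 CPM in PNx 1 and 1.71 to 10.8 CPM in the other PNx samples (−2.80, SE 0.908; −0.56 without PNx 1). Ccn2, connective tissue growth factor, had −0.76 (SE 0.351; −0.28 without PNx 1). Of 11 fibroblast markers 8 had lower means, 2 of them at an unadjusted p under 0.05, where 5.22% of all tested genes did. These 2 were the microfibril protein Mfap5 (−2.1, SE 0.648) and Pi16 (−1.96, SE 0.665), which marks adventitial fibroblasts. Without PNx 1 these were −0.70 and −0.51, and the fibroblast median moved from −0.30 to −0.02. Summed over the fibroblast list, control cells 1 was the highest of the 10 samples at 4425 CPM, and PNx 1 followed at 3249 CPM.

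**Figure D2:**
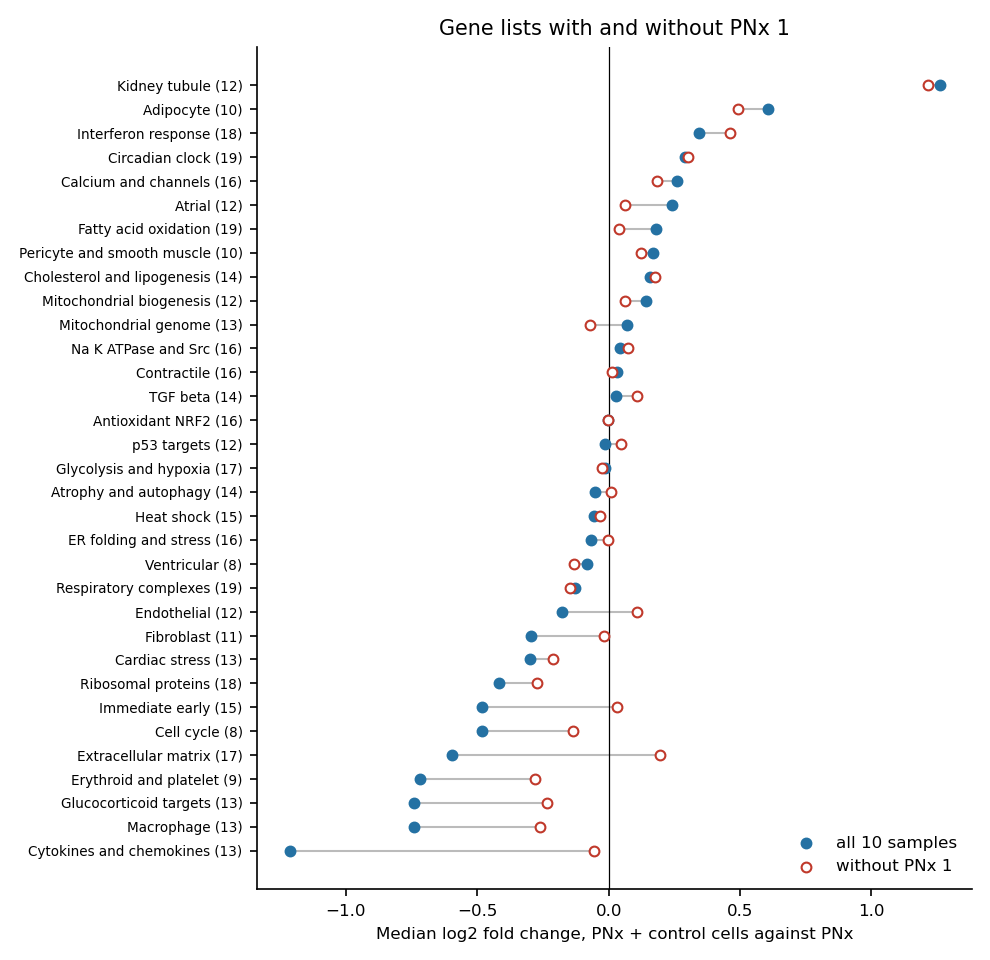
Median log2 fold change of gene lists with at least 8 tested members (their number in brackets), for all 10 samples (filled) and without PNx 1 (open); positive values are higher with control cells. The liver list is left out. Cytokine and matrix lists move furthest between both fits, and the interferon, clock and kidney tubule lists stay above 0. Other lists also stay above 0, among them adipocyte, calcium and channels, and pericyte and smooth muscle.

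Among the genes of the strained cardiomyocyte, Nppb had the lowest p. Nppb (ENSMUSG00000029019, chromosome 4, 147985788 to 147987205) encodes brain natriuretic peptide, which the ventricle releases under stretch. It measured 190, 251, 134, 319 and 184 CPM with control cells and 599, 314, 249, 429 and 293 CPM in PNx. The values of 3 samples with control cells lay below every PNx sample, and the other 2 overlapped the PNx range. The means were 216 ± 71.3 and 377 ± 141 CPM (n = 5 and 5), 1.75-fold lower with control cells (log2 difference −0.81 with SE 0.268, edgeR adjusted p = 0.584). The value was −0.55 without PNx 1 and −0.57 without PNx 1 and PNx 2, and it kept its sign in each fit that left out 1 sample (−0.99 to −0.55). Sham samples measured 170 to 377 CPM, with a median of 192 CPM.

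Nppa, the atrial peptide gene, followed the atrial content of the samples: control cells 1 (1694 CPM) and PNx 5 (1511 CPM) were high, the other 8 samples measured 15.3 to 357 CPM, and the log2 fold change was −0.23 (SE 1.34). Without these 2 samples the value was −1.33 (SE 1.37). Csrp3, the muscle LIM protein, which senses stretch at the Z-disc, measured 837 ± 93.7 CPM with control cells and 1029 ± 121 CPM in PNx (−0.30, SE 0.130, edgeR adjusted p = 0.584). Rcan1, a calcineurin target, measured 61.8 to 80.4 CPM and 71.7 to 139 CPM (−0.40, SE 0.184; −0.22 without PNx 4). With Nppb and Ccn2, these were the 4 of 13 tested cardiac stress genes with a lower level at an unadjusted p under 0.05, where 5.22% of all tested genes had one. Without PNx 1 there was 1. Skeletal actin, Acta1, another gene of the fetal programme, measured 1741 ± 503 and 2284 ± 811 CPM (−0.39, SE 0.294).

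Contractile genes were split, with 8 of 16 higher and 8 lower with control cells and a median log2 fold change of 0.03. Myh6 (ENSMUSG00000040752, chromosome 14, 54941921 to 54966927) measured 13202, 18185, 17288, 17482 and 14061 CPM with control cells and 9851, 14914, 15023, 13107 and 12760 CPM in PNx. The groups overlapped, the log2 fold change was 0.29 (SE 0.132, edgeR adjusted p = 0.584), and it was 0.23 without PNx 1. Titin (Ttn), the giant spring of the sarcomere, had 0.56 (SE 0.261), and 0.35 without control cells 3. The slow myosin heavy chain Myh7 had 0.27 (SE 0.193). Myh6 and Ttn were the 2 contractile genes with a higher level at an unadjusted p under 0.05, where 3.14% of all tested genes had one. The number was 0 without PNx 1 and also without control cells 2.

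In the list of calcium handling and ion channels 14 of 16 genes had higher means, none at an unadjusted p under 0.05. The ryanodine receptor Ryr2, the release channel of the sarcoplasmic reticulum, had 0.46 (SE 0.240), the L-type calcium channel Cacna1c 0.47 (SE 0.266) and the calcium pump Atp2a2 0.20 (SE 0.172). Ttn, Ryr2 and Cacna1c have long transcripts. With the length index of each sample as a covariate, described below, their values were 0.29, 0.07 and 0.09, while that of Myh6 was 0.30. The index has a single value per sample and does not correct each gene for its own length. The ventricular light chain Myl2 measured 2734 ± 603 and 3289 ± 437 CPM (−0.27, SE 0.237).

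**Figure D3:**
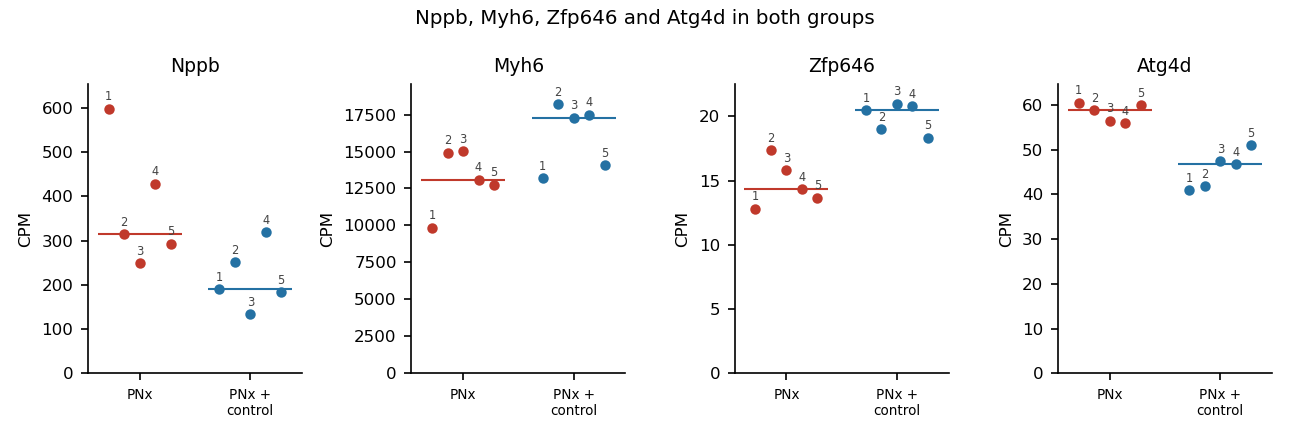
CPM of Nppb, Myh6, Zfp646 and Atg4d in the 5 samples of each group, numbered by replicate, with group medians as lines. Nppb and Myh6 overlap between the groups, while Zfp646 and Atg4d do not.

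The sodium pump and Src list had a median log2 fold change of 0.04. The beta subunit Atp1b1 measured 194 ± 21.2 CPM with control cells and 186 ± 17.4 CPM in PNx (n = 5 and 5, a log2 difference of 0.06, SE 0.183). Src itself was expressed at 4.79 to 10.3 CPM with control cells and 2.42 to 7.19 CPM in PNx (0.37, SE 0.255, edgeR adjusted p = 0.641). Without PNx 1 it had 0.55 (SE 0.263, edgeR adjusted p = 0.999), and without control cells 1 it had 0.18. Of the 16 genes of this list 9 had higher and 7 lower means. At an unadjusted p under 0.05, 1 was lower, where 5.22% of all tested genes were. That gene was Fxyd5, a pump regulator also expressed by leukocytes and fibroblasts, at 162 CPM in PNx 1 and 15.5 to 40.9 CPM in the other PNx samples (−1.43, SE 0.564; −0.37 without PNx 1).

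Energy metabolism showed small differences. Hk2, the hexokinase of muscle, measured 147 to 331 CPM with control cells and 101 to 239 CPM in PNx (0.47, SE 0.217, edgeR adjusted p = 0.584). Pfkm, muscle phosphofructokinase, had 0.27 (SE 0.125), and Bnip3, a mitophagy receptor induced by hypoxia, −0.54 (SE 0.230). Without PNx 1 they had 0.18 and −0.32. The coactivator of mitochondrial biogenesis Ppargc1b had 0.64 (SE 0.308) and its relative Ppargc1a 0.42 (SE 0.298). Acacb, which makes the malonyl-CoA that restrains fatty acid entry into mitochondria, had 0.41 (SE 0.191). None of these passed the adjusted test. Of 19 tested fatty acid oxidation genes 16 had higher means, none at an unadjusted p under 0.05, and without PNx 1 the number was 11. Genes of the respiratory complexes had lower means in 16 of 19 cases, where 50.4% of all tested genes did, none at an unadjusted p under 0.05. Their median was −0.13, and −0.15 without PNx 1. With the length index described below in the fit, it was 0.009, and the fatty acid oxidation median moved from 0.18 to 0.07. Pdk4, which turns glucose oxidation down, measured 299 to 806 CPM with control cells and 96.6 to 600 CPM in PNx (0.27, SE 0.495). The autophagy kinase Ulk1 (0.34, SE 0.127, edgeR adjusted p = 0.584) and the ubiquitin ligase Fbxo32 of muscle atrophy (0.47, SE 0.215) had higher means with control cells.

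Of 19 clock genes 16 had higher means with control cells, with a median of 0.29, and 2 had an unadjusted p under 0.05, where 3.14% of all tested genes did. The count of higher members was 13 without PNx 1. Rora, a nuclear receptor that activates Arntl, measured 12.3, 20.3, 22.7, 14.6 and 19.1 CPM with control cells and 8.39, 13.1, 15.1, 12.1 and 9.65 CPM in PNx (0.61, SE 0.195, edgeR adjusted p = 0.584). Hlf, an output factor of the clock, had 0.82 (SE 0.356). Arntl, which peaks at the opposite time to Dbp, measured 17.5 CPM in control cells 1 and 13.4 CPM in PNx 4, against 0.662 to 3.70 CPM in the other 8 samples. Dbp was low in the same pair of samples, at 33.7 and 38.6 CPM, against 61.1 to 165 CPM. The hour of sampling was not given in the sources used here, and its part in these values was not tested.

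Glucocorticoid-responsive genes again followed PNx 1 and PNx 2. Of 13 genes 10 had lower means and 6 an unadjusted p under 0.05, where 5.22% of all tested genes did, and without PNx 1 the number was 1. The median was −0.74, which was −0.24 without PNx 1 and 0.10 without PNx 1 and PNx 2. The metallothionein Mt2, which binds zinc and copper, measured 139 and 44.1 CPM in PNx 1 and PNx 2 and 3.56 to 7.58 CPM in the other 8 samples (−2.73, SE 0.998). The transcription factor Cebpd, a C/EBP family member of the acute phase, had −1.64 (SE 0.599) and the cell cycle inhibitor Cdkn1a −1.29 (SE 0.474). Without PNx 1 the values were −1.21 for Mt2, −0.63 for Cebpd and −0.56 for Cdkn1a, and without PNx 1 and PNx 2 they were 0.47, −0.04 and −0.16. Lcn2 is also a member of this list.

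Most interferon-stimulated genes had higher means with control cells, although their summed level did not separate the groups. It ran from 208 to 454 CPM with control cells, highest in control cells 2, and from 206 to 464 CPM in PNx, highest in PNx 1. Of 18 genes, all tested, 13 were higher and 6 had an unadjusted p under 0.05, where 3.14% of all tested genes did, and the median was 0.35. Gbp3, a GTPase that attacks membranes around pathogens, measured 7.72, 45.8, 12.4, 23.3 and 15.9 CPM with control cells and 7.55, 7.71, 11.0, 14.7 and 8.75 CPM in PNx (1.07, SE 0.368, edgeR adjusted p = 0.584). Ifit3 had 0.70 (SE 0.248) and Oasl2 0.62 (SE 0.248). Without control cells 2 the values were 0.58 for Gbp3, 0.39 for Ifit3 and 0.37 for Oasl2, and 0 of the 18 genes had an unadjusted p under 0.05. The median was then 0.13. Gbp5 (ENSMUSG00000105504, chromosome 3, 142493978 to 142522344), named after its values were seen, measured 6.05 to 24.5 CPM and 3.25 to 7.79 CPM (1.10, SE 0.340, edgeR adjusted p = 0.584; 0.74 without control cells 2). Sham samples measured 5.0 to 15 CPM of Gbp5, which overlaps both groups.

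**Figure D4:**
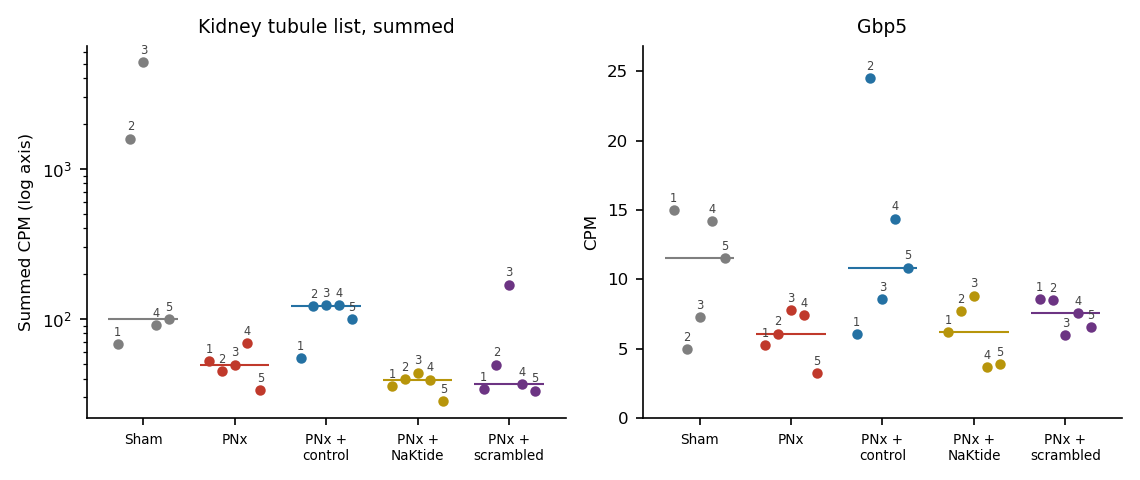
Summed CPM of 15 kidney tubule genes (log axis) and CPM of Gbp5 (linear axis) in the 25 heart samples, numbered by replicate, with group medians as lines. Control cells 2 to 5 lie at 99.96 to 124 summed CPM, above every PNx sample.

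Transcripts of the kidney tubule were found at low levels in the 10 samples, with higher means with control cells. None passed the adjusted test. Kap (ENSMUSG00000032758, chromosome 6, 133849851 to 133853762), an androgen-regulated protein of the proximal tubule, measured 13.9, 57.1, 49.9, 53.7 and 36.8 CPM with control cells and 10.5, 11.5, 12.2, 9.52 and 3.93 CPM in PNx. The groups did not overlap (log2 difference 2.15 with SE 0.921, edgeR adjusted p = 0.584). Miox, the inositol oxygenase of the proximal tubule, had 2.49 (SE 1.26), and the endocytic receptor Lrp2 (megalin) 2.1 (SE 1.16). The phosphate transporter Slc34a1 measured 2.23 to 7.24 CPM against 1.45 to 1.79 CPM, and the pump regulator Fxyd2 5.12 to 10.4 CPM against 2.36 to 4.84 CPM. Slc34a1 and Fxyd2 were named after their values were seen.

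Of the 15 tubule genes 12 were tested, and 11 of them were higher, where 49.6% of all tested genes were. At an unadjusted p under 0.05, 1 was higher, where 3.14% of all tested genes were. In 4 the groups did not overlap, where 0.649% of all tested genes were higher without overlap. Umod, the marker of the thick ascending limb, had 223 counts in the 10 samples together. Sham samples spanned 14.5 to 1738 CPM of Kap, NaKtide samples 3.96 to 8.6 CPM and scrambled samples 4.17 to 47.0 CPM. Summed over the list, the samples with control cells measured 55.0 to 124 CPM, the PNx samples 33.4 to 69.2 CPM, and Sham 2 and Sham 3 1585 and 5108 CPM. The part of kidney RNA in the heart samples in these values was not tested.

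The 12 genes of lowest p with control cells higher (mean log2 CPM 2 or more) had small differences, with log2 fold changes of 0.32 to 0.55. In 6 of them the groups did not overlap, where 0.649% of all tested genes were higher without overlap. These genes were picked by their p in this same comparison, so that count is no further support. Zfp646 (ENSMUSG00000049739, chromosome 7, 127876221 to 127885996), a zinc finger protein, measured 20.5, 19.0, 21, 20.8 and 18.3 CPM with control cells and 12.8, 17.4, 15.8, 14.4 and 13.7 CPM in PNx (0.43, SE 0.105, edgeR adjusted p = 0.584). Its value was 0.40 without PNx 1. Tln2, a talin that ties integrins to actin, had the lowest p (0.46, SE 0.111, edgeR adjusted p = 0.584). The others without overlap were Utp20, a factor of ribosomal RNA processing (0.55), the lysophospholipase Pnpla7 (0.41), the ciliary transport protein Ift172 (0.49), the histone acetyltransferase Crebbp (0.45) and the RNA-binding protein Rbm6 (0.36). The RNA-dependent kinase Eif2ak2 (0.44), the large subunit of RNA polymerase II Polr2a (0.39), Nol6 (0.32) and Zc3h13 (0.51) were also among the 12.

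Of the 12 genes of lowest p with control cells lower, S100a9, Lcn2, Hp, Ccl9 and Serpina3n are described above. The others had smaller differences. Atg4d (ENSMUSG00000002820, chromosome 9, 21265293 to 21277772), a protease of autophagy, measured 40.9, 41.9, 47.4, 46.7 and 51.0 CPM with control cells and 60.5, 58.8, 56.5, 56.0 and 60.0 CPM in PNx. All values with control cells lay below all PNx values (−0.36, SE 0.101, edgeR adjusted p = 0.584), and the value was −0.32 without PNx 1. H3f3a, which encodes the replacement histone H3.3, measured 61.7 ± 1.5 and 80.7 ± 12.7 CPM (−0.39, SE 0.110) with no overlap. Vps29, a subunit of the retromer that recycles membrane proteins, had −0.38 (SE 0.107). The dynein light chain genes Dynlt1a (−0.56), Dynlt1b (−0.59) and Dynlt1c (−0.57) are near-identical copies, and H3f3c (−0.45) is close to H3f3a in sequence, so reads may be split among them and these values are uncertain.

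Over all genes, 98 had every control cell sample above every PNx sample and 125 the reverse, 0.649% and 0.828% of the 15091 tested. Most of these differences were small: 88 of the 98 and 104 of the 125 were under 0.6 on the log2 scale. Pseudogenes made up 3 of the 98 and 44 of the 125. The share of pseudogenes among all tested genes is not given here, so neither number can be set against it. An unadjusted p under 0.05 was reached by 474 genes higher with control cells (3.14%) and 787 lower (5.22%), 8.36% in all. Without PNx 1 these numbers were 285 and 206, and without PNx 1 and PNx 2 they were 215 and 216, with 0 called in each fit. Leaving out another sample gave 242 (control cells 3) to 832 (control cells 1) higher and 420 (control cells 3) to 1191 (PNx 3) lower.

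The direction of a gene went with its length. Protein-coding genes were put into 5 bins of 2511 or 2512 genes by the length of their merged exons. The median log2 fold change was −0.16 in the shortest bin (up to 2533 bases) and −0.04, 0.04 and 0.09 in the next ones, and it reached 0.19 in the longest (7764 bases and more). In the shortest bin 10 genes were higher and 218 lower at an unadjusted p under 0.05, and in the longest 221 were higher and 37 lower. Without PNx 1 the medians still ran from −0.09 to 0.17. A length index, the mean log2 CPM of the shortest 25% of genes minus that of the longest 25%, was −0.15, −0.38, −0.63, −0.14 and −0.35 in control cells 1 to 5 and 0.33, −0.18, −0.32, 0.17 and −0.07 in PNx 1 to 5. The groups overlapped, with the highest index in PNx 1. Because the index is computed from these same genes and samples, a fit that holds it largely flattens the medians of the bins by construction. What sets the index was not tested.

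**Figure D5:**
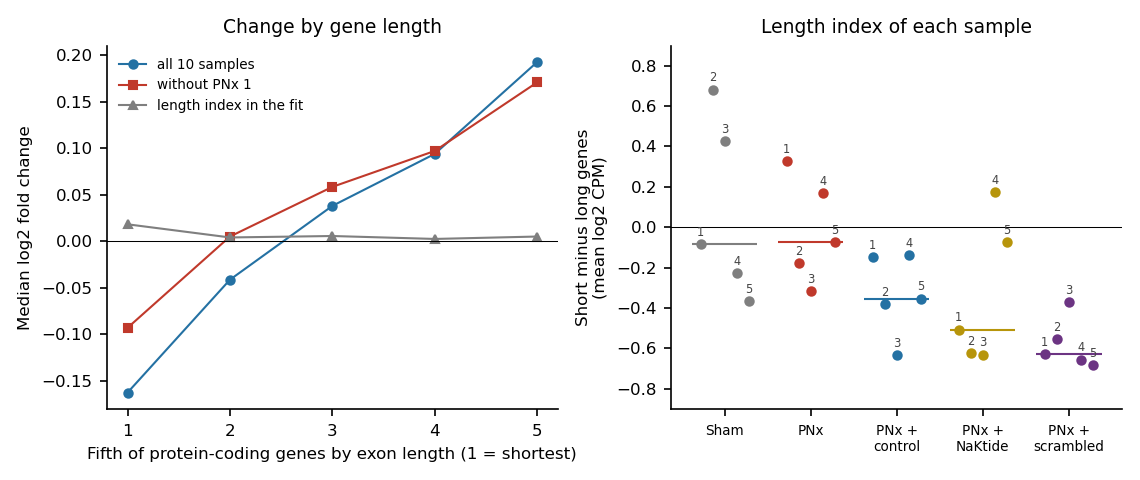
Left, median log2 fold change of protein-coding genes by bin of exon length for all 10 samples, without PNx 1, and with the length index in the fit. Right, the length index of the 25 heart samples, numbered by replicate, with group medians as lines. Bin medians climb from −0.16 to 0.19 and lie between 0.002 and 0.02 with the index in the fit. The index is computed from these same genes and samples, so the flat medians in that fit are largely built in.

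Ribosomal protein genes, which are short, were lower with control cells in 18 of 18 cases, with a median of −0.42. An unadjusted p under 0.05 was found for 6 of them, where 5.22% of all tested genes were lower, and for 1 without PNx 1. Summed over the list, they measured 4238, 3491, 3069, 4078 and 3434 CPM with control cells and 6431, 4503, 3817, 4528 and 4905 CPM in PNx. Control cells 1 and 4 overlapped PNx 3. Rpl5, of the large subunit, had no overlap (−0.41, SE 0.171), Rps3, of the small subunit, had −0.46 (SE 0.162) and the stalk protein Rplp0 −0.47 (SE 0.207). The median was −0.27 without PNx 1 and −0.09 with the length index as a covariate. The index is made from short and long genes of these same samples, so part of that last shift is built in. Ribosomal proteins have many pseudogenes, among which reads may be split.

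With the length index in the fit, edgeR called 0 genes, with 505 higher and 529 lower at an unadjusted p under 0.05. S100a8 had −5.51, Lcn2 −3.85, Nppb −0.57, Gbp5 0.76, Kap 3.07, Zfp646 0.35 and Atg4d −0.31 in that fit. The macrophage median was −0.35, the interferon median 0.36 and the matrix median −0.18.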

How the data were processed

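Bulk RNA-seq of total RNA from flash-frozen heart tissue (fragments read as 2 x 50 bases) was deposited by the authors as raw counts per gene, 1 column per sample. Per the submitters' processing notes, Trimmomatic 0.38, HISAT2 2.1.0 and DESeq2 (1.20.0 and 1.20.1) were used with GRCm38. For the counting tool and its strand setting the sources used here give nothing. Whether genes that overlap on opposite strands were counted apart is therefore not known.

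From the counts, edgeR 4.0.16 (R 4.3.3) was run with TMM scaling, its expression filter and the quasi-likelihood F test over the 25 heart samples in 5 groups (20 residual degrees of freedom). Control cells were contrasted with PNx, with Benjamini-Hochberg adjustment over 15091 of 54232 genes, with 0.05 as the threshold. The standard error is the log2 fold change divided by the root of F. CPM values are scaled by TMM. DESeq2 1.42.0 and limma 3.58.1 (voom) were alternatives, with other scalings, filters, covariates and left-out samples. Exact permutation tests went through every split of the samples in Python 3.11.15. The edgeR step was tested on simulated counts. Gene positions and exon lengths come from GENCODE M21.

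Named genes were the 12 of lowest p in each direction (predicted genes left out, mean log2 CPM 2 or more), 23 fixed genes, up to 4 of lowest p in each of 41 lists, and genes called by DESeq2 or voom. Exceptions are named as such. The members and lists were chosen with earlier results of these data known. Replicate numbers were not taken to pair the samples. Some of the genes this rule names are not reported here.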

Additional observations from a re-analysis of the deposited data

Results flagged for a closer look

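In each group of 5 samples, a sample was marked where its gap to the nearest other sample, divided by the range of the group, exceeded 0.71 (Dixon's critical value). This was so in 43 of 184 groups tested. Chance gives about 1 in 20 for normally distributed values. The CPM values were not log-transformed, and many of the genes were picked by their p in these data. The share marked can therefore not be compared with 1 in 20. Genes in a list are not independent of each other.

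PNx 1 was the highest of its group for Lcn2 (627 CPM), Hp (514 CPM), Serpina3n (859 CPM), Ccl7 (6.23 CPM), C1qa (199 CPM), Cd14 (46.1 CPM) and Fxyd5 (162 CPM). It was also the highest for the matrix and fibroblast genes Lox (37.9 CPM), Timp1 (109 CPM), Postn (408 CPM), Fbn1 (178 CPM), Col1a1 (473 CPM), Col3a1 (1446 CPM), Ltbp2 (88.9 CPM), Ccn2 (277 CPM), Mfap5 (171 CPM) and Pi16 (557 CPM). For Pfkm it was the lowest (494 CPM).

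Control cells 1 was the highest of its group for the myeloid and acute-phase genes Serpina3n (29.6 CPM), Mmp9 (3.44 CPM), Ccl9 (6.79 CPM), Ccl6 (16.2 CPM), Lyz2 (287 CPM), C1qa (68.9 CPM) and Cd14 (8.0 CPM). The same held for Timp1 (6.89 CPM), Col1a1 (244 CPM), Col3a1 (528 CPM), Ltbp2 (7.44 CPM) and Pi16 (83.4 CPM). It held too for Nppa (1694 CPM), Myl7 (1228 CPM), Arntl (17.5 CPM), Cebpd (23.0 CPM) and Cdkn1a (26.9 CPM). Control cells 1 was the lowest for Dbp (33.7 CPM) and for the mitochondrial share (11.8%).

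PNx 5 was the highest for Nppa (1511 CPM) and Myl7 (1050 CPM), and PNx 4 for Arntl (13.4 CPM) and the liver apolipoprotein Apoa1 (143 CPM). PNx 3 was the highest for Eif2ak2 (18.5 CPM) and control cells 5 for Apoa1 (11.2 CPM).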

How the results depend on the processing

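The number of genes called by edgeR was 0 in every edgeR fit, 0 with voom and 3 with DESeq2. Genes at an unadjusted p under 0.05 numbered 927 higher and 1211 lower with voom, 1229 lower without an expression filter, and 215 and 216 without PNx 1 and PNx 2. Leaving out 1 sample gave 0 called genes each time, 242 to 832 higher and 206 to 1191 lower. The difference in mitochondrial share then ran from −0.56 (without PNx 1) to 2.20 percentage points, and that in total counts from 1484798 to 2963694 (without PNx 3, exact permutation p = 0.0397). With the replicate number as a block, 0 genes were called, with 438 higher and 592 lower. Same-numbered samples did not all deviate together (correlations across genes 0.343, 0.034, 0.342, 0.025 and −0.075). Of 90 named genes, 75 kept 1 direction in every setting in which their values were compared, and 39 of the 1890 values compared reversed. Reversed log2 fold changes were Arntl −0.34 with the atrial covariate, and Col1a1 0.054, Nppa 0.27, Atp2a2 −0.017, Ppargc1a −0.033 and Atp1b1 −0.036 with the length index. With voom they were Myl7 −2.55, Pdk4 −0.088 and Arntl −0.87, and with the replicate block Nppa 0.37 and Arntl −0.41. Without PNx 1 and PNx 2 they were Mmp9 0.55, Postn 0.37, Col1a1 0.55, Col3a1 0.42, Ltbp2 0.18, Pi16 0.071, Myl7 −0.46, Pdk4 −0.028, Arntl −0.40 and Mt2 0.47. Without control cells 1 and PNx 5 they were Myl7 −1.24 and Arntl −1.80. With 1 sample left out, Apoa1 ran from −6.16 to 2.06, Arntl from −1.75 to 1.08, Col1a1 from −1.16 to 0.45, Col3a1 from −1.67 to 0.19, Myl7 from −3.46 to 2.28 and Nppa from −2.44 to 0.89. The fits without 2 samples and with the length index were chosen after seeing the data. The fits also differ in the number of samples and of tested genes, and the cause of these shifts was not tested. Levels under about 1 CPM rest on few counts, such as the 3 to 10 counts of S100a8 with control cells.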

Other observations

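Transcripts of other tissues varied between samples. Liver genes had lower means with control cells in 8 of 8 tested members, 3 at an unadjusted p under 0.05. Over all tested genes 50.4% were lower, and 5.22% were lower at that p. Summed liver transcripts measured 1304 CPM in PNx 4 and 132 CPM in control cells 5. Apoa1 had a log2 fold change of −3.40 (SE 1.57), and 2.06 without PNx 4. Red cell and platelet genes had lower means in 9 of 9 tested members (median −0.72, and −0.28 without PNx 1), none at an unadjusted p under 0.05, with a summed level of 17764 CPM in PNx 1. Of 10 tested adipocyte genes 8 had higher means with control cells, none at an unadjusted p under 0.05, and Adiponectin (Adipoq) had 43 counts in the 10 samples together. Lung genes were near 0, and Sftpc had no count.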
